A study of Saccharomyces cerevisiae with 6 samples.

Results

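The 9 genes described here encode the enzymes that build and break down glycogen in budding yeast (Saccharomyces cerevisiae), together with a pair of subunits that direct protein phosphatase 1 to this pathway. They were chosen by name, as the probe sets that the array platform's annotation pairs with GSY1, GSY2, GLC3, GPH1, GDB1, GLG1, GLG2, GAC1 or PIG1. The choice was made with earlier results of these data known, so shares set beside those of all probe sets are a description and not a test. Each gene had 1 probe set, so 9 of the 9275 probe sets tested, and 9 of the 5656 genes measured, belong to the group. Their RNA levels were compared between strain Y118, which carries a point mutation in histone H2B (K123R), and the wild-type strain Y117, with 3 cultures and 3 Affymetrix S98 arrays for each. The substitution puts arginine, which cannot be ubiquitinated, in place of the lysine at which H2B receives a single ubiquitin. Cells from early stationary cultures were set back to an optical density of 0.3 in 150 ml of rich medium (YPD), and RNA was taken once they had reached a density of 2, after 7 hours of shaking at 30 degrees. Any difference between the strains other than the mutation cannot be told apart from it, and transcript levels do not check the substitution itself.

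Glycogen is a branched polymer of glucose that yeast stores as growth slows and draws on when glucose is short. Glycogenin (GLG1, GLG2) starts a chain by attaching glucose to itself, glycogen synthase (GSY1, GSY2) lengthens the chain from UDP-glucose, and the branching enzyme (GLC3) adds side chains. Glycogen phosphorylase (GPH1) and the debranching enzyme (GDB1) release the glucose again. Synthase is held inactive by phosphorylation, and the phosphatase Glc7, brought to it by targeting subunits such as Gac1 and Pig1, reactivates it. Transcripts of several of these genes are known to increase in stationary phase and under stress through the activators Msn2 and Msn4.

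The signals were scaled by the authors and are on a linear scale, so they can be compared between arrays for 1 probe set but not between genes. The median signal of an array lay between 130.5 and 139. H2B K123R replicate 1 stood apart: its log2 signals correlated at 0.958 and 0.969 with the other arrays of its group, against 0.991 between those 2 arrays and 0.992 to 0.995 among wild-type arrays. On that array the actin control probe set at the 3' end read 1.98 times the one at the 5' end, while on the other 5 arrays this ratio lay between 1.40 and 1.59. The 4 mouse control probe sets, which have no target in yeast, read between 0.922 and 18.3 and serve as a guide to the level without a transcript. Detection calls were not used.

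The comparison asked how transcripts of the glycogen genes in H2B K123R cells differed from those in wild-type cells after this outgrowth. Of the 9 genes, 3 rose and none fell: GPH1, GLC3 and PIG1 were 1.67-fold to 1.78-fold higher in H2B K123R. These calls are from limma with a threshold of 0.05 on the p-value adjusted over all probe sets, which 6.68% of the 9275 probe sets met in either direction, and 4.22% upward. Of genes read from their brightest probe set, 8.98% met it. An unadjusted p under 0.05 was found for 6 of the 9 genes, against 24.9% of probe sets and 30.7% of genes. All 9 log2 differences were positive, as were those of 52.8% of all probe sets and 60.4% of genes, and their median was 0.53, against 0.02 over all probe sets and 0.08 over genes. In 6 of the 9 genes every H2B K123R array read higher than every wild-type array, which was the case for 19.0% of probe sets and 25.5% of genes.

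**Figure D1:**
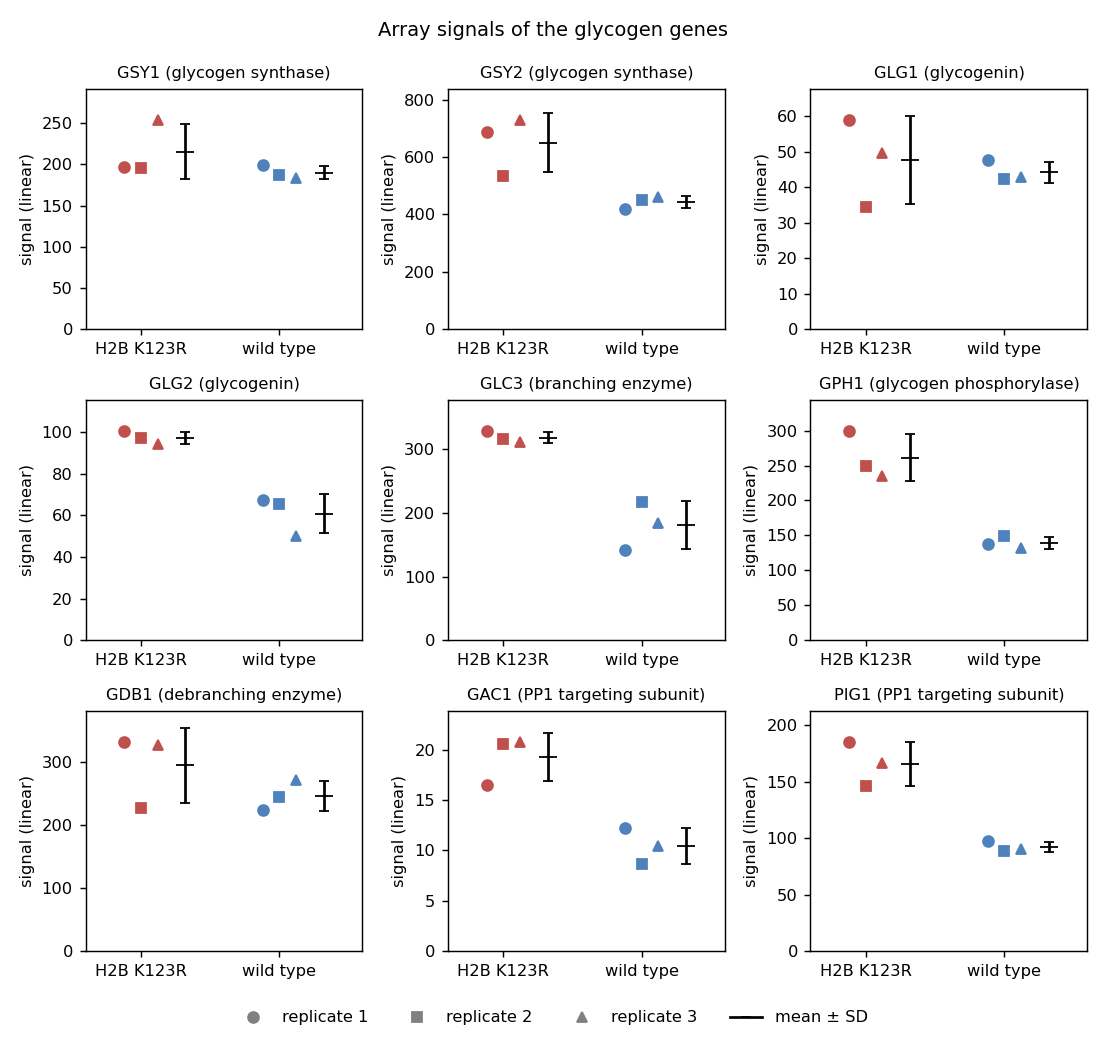
Signal of each glycogen gene on the 3 H2B K123R arrays (red, left) and the 3 wild-type arrays (blue, right), on a linear scale from 0, with the marker shape giving the replicate and the black bar the mean ± SD. The groups do not overlap for GSY2, GLG2, GLC3, GPH1, GAC1 and PIG1 and overlap for GSY1, GLG1 and GDB1.

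For chain initiation, transcripts of both glycogenin genes were measured. GLG2 read 100.4, 97.0 and 94.4 on the H2B K123R arrays of replicates 1, 2 and 3, against 67.3, 65.5 and 49.9 on the wild-type arrays. The mutant values lay close together and all above the wild-type values, of which replicate 3 was the lowest. The means were 97.3 ± 3.01 in H2B K123R and 60.9 ± 9.57 in wild type (SD, n = 3 each, as for all means below), and the log2 difference of 0.57 ± 0.14 (SE) had an adjusted p of 0.0638, so GLG2 did not pass. Its paralogue GLG1 read 58.9, 34.4 and 49.7 in H2B K123R and 47.6, 42.2 and 42.8 in wild type. The mutant arrays of GLG1 spanned the wild-type ones, with the highest and the lowest of the 6 values both in H2B K123R. Its log2 difference was 0.06, with a 95% interval from -0.35 to 0.47 (adjusted p = 0.858).

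For chain elongation, transcripts of both synthase genes were measured. GSY2, which encodes the synthase isoform that is the main one in stationary cells, read 688, 536 and 729 in H2B K123R, against 419, 451 and 459 in wild type. All 3 mutant arrays were above the wild-type arrays, and replicate 2 was the lowest of them. The means were 651 ± 102 in H2B K123R and 443 ± 21.4 in wild type, with a log2 difference of 0.53 ± 0.13 and an adjusted p of 0.0613, which missed the threshold. GSY1, the other isoform, read 197, 196 and 254 in H2B K123R, against 199, 187 and 184 in wild type. Only replicate 3 of the mutant lay above the highest wild-type array. The log2 difference of GSY1 was 0.16, with a 95% interval from -0.15 to 0.47 (adjusted p = 0.492). Whether transcripts of 1 paralogue bind the probes of the other was not tested.

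GLC3, the branching enzyme gene, rose. Its signals were 328, 316 and 311 in H2B K123R and 142, 217 and 185 in wild type. Here the mutant arrays were the more uniform ones, with a mean of 318 ± 8.97, while the wild-type mean was 181 ± 37.8. The log2 difference was 0.78 ± 0.16, a 1.72-fold increase (adjusted p = 0.0370). The call was lost after cyclic loess normalization between arrays (adjusted p = 0.0598) and without H2B K123R replicate 2 (adjusted p = 0.0664). It was also lost without H2B K123R replicate 3 or any wild-type array, and with a block on the replicate number, as given below.

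Of the breakdown enzymes, GPH1 rose and GDB1 did not pass. GPH1 read 299, 249 and 235 in H2B K123R, against 137, 149 and 133 in wild type. The lowest mutant array was well above the highest wild-type array, and replicate 1, the array that stood apart, was the highest. The means were 261 ± 33.7 in H2B K123R and 139 ± 8.34 in wild type, and the log2 difference of 0.83 ± 0.13 was a 1.78-fold increase (adjusted p = 0.0207), the largest among the 9 genes. Without H2B K123R replicate 1 the difference was 0.73 and still passed (adjusted p = 0.0138). The call of GPH1 was lost without H2B K123R replicate 3 or any wild-type array, as given below. GDB1 read 331, 227 and 326 in H2B K123R and 224, 245 and 271 in wild type. Mutant replicates 1 and 3 were above all wild-type arrays and replicate 2 lay among them. Its log2 difference was 0.23, with a 95% interval from -0.17 to 0.63 (adjusted p = 0.442).

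The phosphatase-targeting subunit genes of the chosen group, PIG1 and GAC1, were both higher on every mutant array. PIG1, whose product is related to Gac1 and binds Gsy2, read 185, 146 and 166 in H2B K123R, against 97.2, 88.8 and 90.4 in wild type. The groups were clearly apart, and the wild-type arrays lay close together. PIG1 rose 1.67-fold, with means of 166 ± 19.4 in H2B K123R and 92.1 ± 4.43 in wild type and a log2 difference of 0.74 ± 0.13 (adjusted p = 0.0264). With a constant of 1 or 64 added before taking logs, in place of 16, the difference of PIG1 was 0.83 or 0.55. GAC1, the gene of the other targeting subunit, was dim. It read 16.5, 20.6 and 20.7 in H2B K123R, against 12.2, 8.69 and 10.4 in wild type. All wild-type arrays and mutant replicate 1 read no higher than the brightest mouse control, and mutant replicates 2 and 3 were just above it. Its log2 difference of 0.42 ± 0.10 did not pass (adjusted p = 0.0638). The size of that difference depended on the constant added before taking logs, with 0.83 for a constant of 1 and 0.16 for 64, so no fold is given.

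Related enzymes were also compared on the same array, with the gene of the larger difference on top, so that the sign of each comparison was fixed by that choice. The log2 ratio of GSY2 to GSY1 signal averaged 1.52 ± 0.18 in H2B K123R and 1.16 ± 0.12 in wild type, a difference of 0.37. The ratio of GLG2 to GLG1 averaged 0.85 ± 0.28 in H2B K123R and 0.35 ± 0.17 in wild type, a difference of 0.50. That of GPH1 to GDB1 averaged -0.15 ± 0.29 in H2B K123R and -0.76 ± 0.17 in wild type, a difference of 0.60. In all 3 pairs the ratios of the 2 groups did not overlap. Such separation was favoured, since in each pair the gene on top separated the groups by itself and the other did not. How often the ratios of other gene pairs separate was not counted. The two-sided exact permutation p was 0.1 for each pair, and remained 0.1 when adjusted over the 3 pairs. That is the smallest p that 3 arrays against 3 can give. It lies above the threshold, so no pair could pass and the test cannot decide whether the genes of a pair changed unequally. The ratios themselves carry no level, since different probe sets are not comparable.

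The mutant arrays did not contribute equally. The median of the 9 genes' log2 differences from the wild-type mean was 0.61 on H2B K123R replicate 1, 0.47 on replicate 2 and 0.53 on replicate 3, while the median over all probe sets was 0.09, 0.002 and -0.001 on these arrays. Replicate 1 gave the highest of all 6 values for 6 genes and replicate 3 for the other 3. Replicate 2 gave the lowest value of the mutant group for 5 genes, and was below the wild-type mean for GLG1 and GDB1. All 9 genes were above the wild-type mean on replicates 1 and 3. Whether the higher actin ratio of replicate 1 bears on these values was not tested. Without replicate 1 the calls were GPH1, GLC3, PIG1 and GAC1, and the median difference was 0.48. In that fit 11.0% of all probe sets passed, against 6.68% on all arrays, and the wild-type signals of GAC1 lay within the range of the mouse controls.

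**Figure D2:**
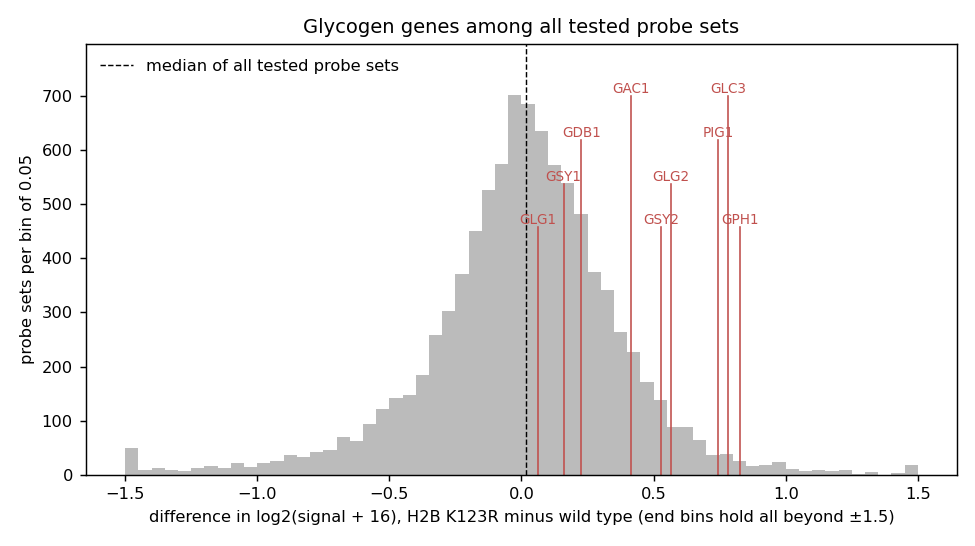
Histogram of the log2(signal + 16) difference, H2B K123R minus wild type, over all 9275 tested probe sets, in bins of 0.05, with the 9 glycogen genes marked by red lines whose heights carry no meaning. All 9 lie right of the median of all probe sets (dashed, 0.02), from GLG1 at 0.06 to GPH1 at 0.83.

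The calls depended on which arrays were used. All 3 were kept without H2B K123R replicate 1, and those of GPH1 and PIG1 without replicate 2. GPH1, GLC3 and PIG1 each failed the test when any wild-type array or H2B K123R replicate 3 was left out, with adjusted p-values between 0.0617 and 0.146 in those fits. Their log2 differences stayed between 0.63 and 0.91. The number of calls over all probe sets fell in these same fits, to 59, 42 and 22 when wild-type replicate 1, 2 or 3 was left out and to 70 in the absence of H2B K123R replicate 3, against 620 on all arrays.

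**Figure D3:**
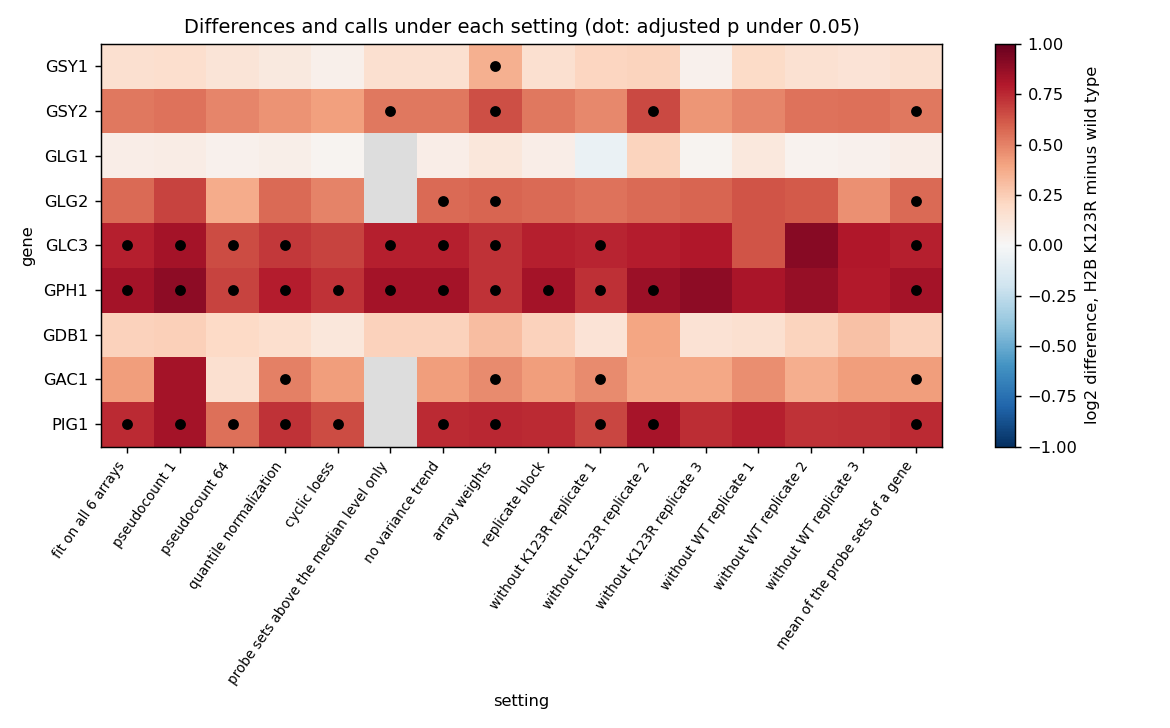
Log2 difference, H2B K123R minus wild type (colour, from -1 to 1), of the 9 glycogen genes (rows) in the fit on all 6 arrays and under 15 other settings (columns), with a dot where the adjusted p was under 0.05 and grey where a gene was filtered out. GPH1 was called in 11 of the 15 other settings, and GDB1 and GLG1 in none.

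Genes that feed or regulate the pathway were read from 4 further lists, with 29 genes measured. Of these 29, 2 rose and none fell, and 19 differences were positive, with a median of 0.07. These are near the values over all genes, of which 8.98% passed and 60.4% were positive, with a median of 0.08. In the supply of activated glucose, 1 of 6 genes passed. This was HXK1, a hexokinase gene that is induced when glucose runs low, with 964, 811 and 978 in H2B K123R, against 478, 526 and 606 in wild type. The groups were well apart, with means of 917 ± 92.6 in H2B K123R and 537 ± 64.7 in wild type, a 1.69-fold increase (log2 difference 0.76 ± 0.12, adjusted p = 0.0216). The other 5 genes of this list, which include the phosphoglucomutase genes and the UDP-glucose pyrophosphorylase gene UGP1, had log2 differences from -0.12 to 0.35.

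Among 5 other phosphatase and glycogen-associated genes, 1 passed. GLC8, which encodes a regulator of the phosphatase Glc7, read 433, 442 and 419 in H2B K123R, against 270.0, 307 and 305 in wild type. It rose 1.44-fold with no overlap between the groups (log2 difference 0.53 ± 0.09, adjusted p = 0.0265). SGA1, the glucoamylase gene that serves glycogen breakdown during sporulation, had the largest difference of this list, at 0.63, and did not pass (adjusted p = 0.0648). Its brighter probe set read 186, 219 and 167 in H2B K123R and 104, 139.8 and 108 in wild type, and its dimmer one had a difference of 0.66 (adjusted p = 0.0832). The groups of SGA1 did not overlap on either probe set. The remaining genes of this list did not pass and went both ways. Their log2 differences were 0.28 for GIP2, -0.08 for the brighter probe set of GLC7 and -0.24 for PIG2. HXK1 and GLC8, like the glycogen genes, failed the test when any wild-type array or H2B K123R replicate 3 was left out, and GLC8 also without H2B K123R replicate 2 (adjusted p = 0.0517) and after cyclic loess (adjusted p = 0.0737).

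The kinases and cyclins that act on glycogen metabolism gave no call by limma in 12 measured genes, with 1 at an unadjusted p under 0.05, against 30.7% of all genes, and a median difference of 0.001. The gene under 0.05 was PSK1, with every mutant array above every wild-type array (log2 difference 0.38, adjusted p = 0.0780). The largest difference was that of PCL10, a cyclin of the kinase Pho85, which phosphorylates Gsy2. PCL10 read 113, 78.5 and 113 in H2B K123R and 78.6, 58.1 and 75.9 in wild type, with the groups just touching (log2 difference 0.43, adjusted p = 0.206). The 6 stress and nutrient regulators gave no call either, again with 1 at an unadjusted p under 0.05. That gene was MSN2, the general stress activator, which read 338, 458 and 509 in H2B K123R and 567, 547 and 570.2 in wild type. All 3 mutant arrays of MSN2 were below the wild-type arrays, replicate 1 most of all, with a log2 difference of -0.38 (adjusted p = 0.188). MSN4, the gene of the related activator, went the other way. It read 221, 257 and 217 in H2B K123R and 213, 192 and 177 in wild type, with no overlap (log2 difference 0.24, adjusted p = 0.280).

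Trehalose, the other storage carbohydrate of yeast, draws on the same UDP-glucose. None of its 7 genes passed by limma, and 2 had an unadjusted p under 0.05, a share near the 30.7% of all genes. The median difference of the glycogen genes was 0.53 and that of the 7 trehalose genes, each above 0 as were 60.4% of all genes, was 0.10; whether the lists differ was not tested. NTH1, a neutral trehalase gene, had the largest, at 0.56 (adjusted p = 0.125). It read 842, 511 and 618 in H2B K123R, against 399, 417 and 482 in wild type, so that the groups did not overlap and replicate 1 was far above the others.

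**Figure D4:**
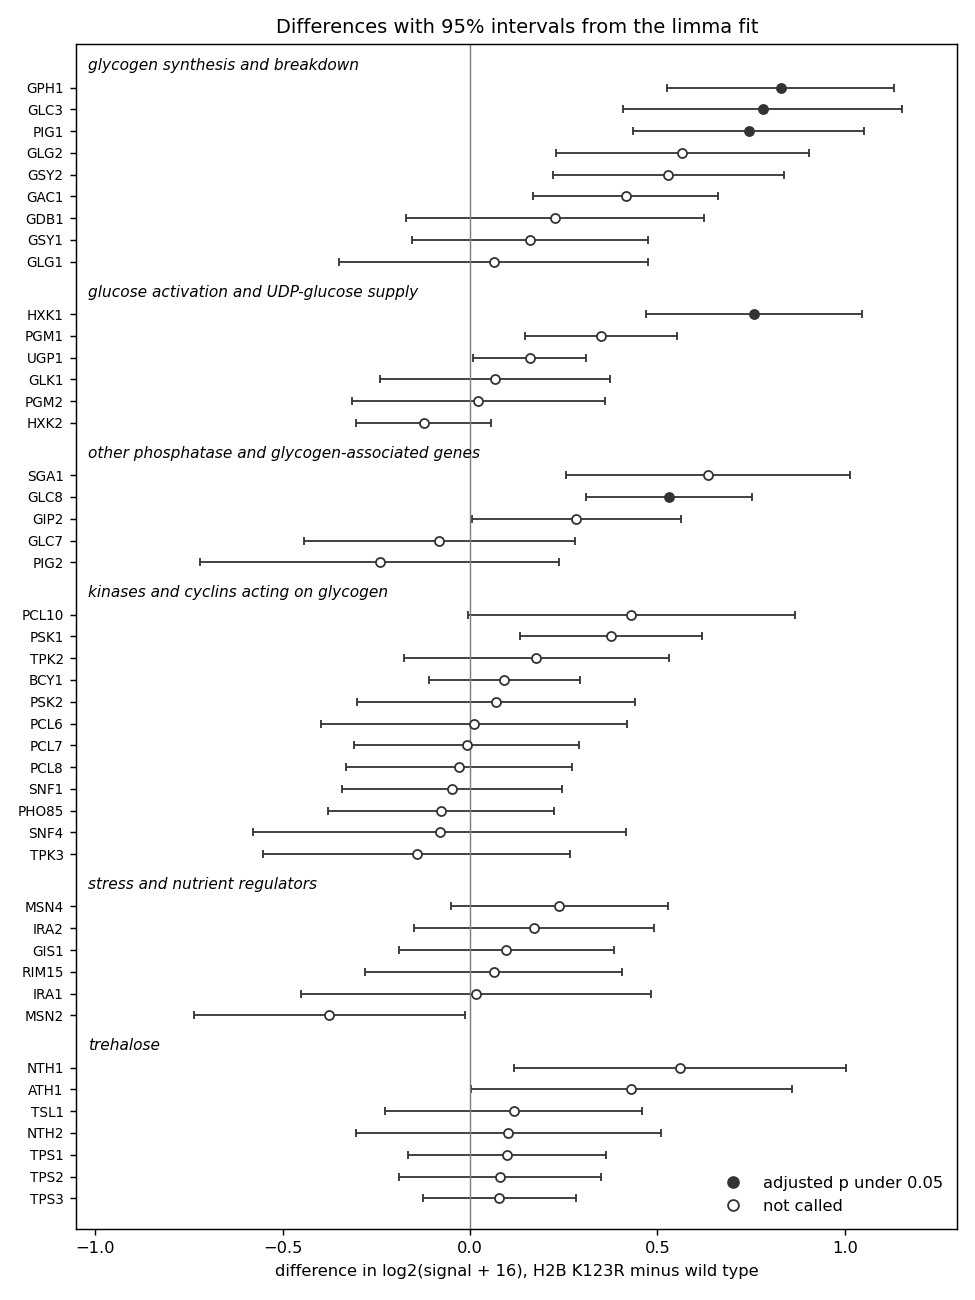
Log2(signal + 16) difference, H2B K123R minus wild type, of the 9 glycogen genes and the genes of 5 related lists, with 95% intervals from the limma fit (n = 3 arrays each). Filled points passed at an adjusted p under 0.05: GPH1, GLC3, PIG1, HXK1 and GLC8, all higher in H2B K123R.

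Similar patterns were sought among genes outside these lists with a mean log2 signal above the median of all probe sets. Those most like the average of the 9 glycogen genes were PKP2, HOM3, BNA1, TDH1 and GVP36, with Pearson correlations of 0.988 to 0.995 over the 6 arrays. PKP2, which encodes a mitochondrial protein kinase that acts on pyruvate dehydrogenase, read 228, 180.4 and 251 in H2B K123R, against 115, 115 and 111 in wild type. HOM3, the aspartate kinase gene, read 1038, 801 and 983 in H2B K123R, against 621, 593 and 616 in wild type. Replicate 2 was the lowest mutant array for both, as it was for 5 of the 9 glycogen genes, a likeness that picking genes by correlation favours. The other three serve NAD synthesis (BNA1), glycolysis (TDH1) and vesicle traffic (GVP36). The correlations are a description: the arrays fall into 2 groups, and 460 of the 3776 genes considered had a correlation above 0.9.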

How the data were processed

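Total RNA of 3 H2B K123R and 3 wild-type cultures was labelled with biotin and hybridised to Affymetrix S98 arrays, 1 per culture, per the labels' protocols. Groups came from the mutation field of the labels and replicate numbers from the sample titles. No label says that the cultures had separate starters, and the p-values reflect only how these cultures vary, which may be technical variation. Each deposited value is the linear intensity of a probe set, scaled by the authors: with 2% cut from either end, array means were 500.4 to 500.5. The sources used here do not name the summarization software. Precision is limited by the number of arrays.

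Of 9335 probe sets, 60 controls were set aside and 9275 tested. The platform annotation, with symbols checked through gene identifiers against the R64 gene table, named 1 gene for 6504, several for 328 and none for 2443. A gene with several probe sets was read from the brightest. The scale of all tests was log2(signal + 16), which understates changes of dim genes. Array medians differed by 0.0924, under the limit of 0.5 for a quantile step. H2B K123R was tested against wild type with limma 3.58.1 in R 4.3.3 (two-sided, moderated with a variance trend, Benjamini-Hochberg over 9275 probe sets, threshold 0.05). Folds are powers of 2 of these differences. The fit was tested on simulated data. Ratios of paired genes were tested by exact permutation in SciPy 1.17.1.

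The 9 genes were named throughout. From each other list, genes that passed and the gene with the largest difference were named. Among genes outside the lists and above the median level of all probe sets, 5 were named by correlation with the mean profile of the 9. UGP1, PSK1, GIP2, GLC7, PIG2, MSN4, the second probe set of SGA1 and the neighbouring genes fall outside this rule and were picked with their values in view. The members and lists were chosen with earlier results of these data known. The alternatives were other pseudocounts, quantile and cyclic loess normalization, a filter on dim probe sets, no variance trend, array weights, a replicate block, each array left out, and the mean of a gene's probe sets.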

Additional observations from a re-analysis of the deposited data

How the results depend on the processing

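The median log2 difference of the 9 glycogen genes, 0.53, was positive under every alternative run. It was 0.68 with a pseudocount of 1, 0.37 with 64, 0.42 after cyclic loess and 0.44 to 0.57 when 1 array was left out. Of 131 differences of single glycogen genes under the alternatives, 130 were positive. These are refits of the same 6 arrays, so the count is not separate evidence. For these genes, dropping the variance trend, the replicate block, the filter on dim probe sets and the mean of a gene's probe sets cannot change the difference. GLG1 ranged from -0.064 to 0.22 with 1 array left out, the negative value being that without H2B K123R replicate 1 (adjusted p = 0.831). Counts of calls depended more on the setting. With array weights 7 of the 9 glycogen genes, 11 of 36 related genes and 2885 probe sets passed (31.1% of all), against 3, 2 and 620 in the reported fit. The weighted fit rests largely on 1 mutant array: H2B K123R replicate 3 had a weight of 4.52, against 0.181 for replicate 1 and 0.473 for replicate 2. With 1 array left out the counts ranged from 0 to 4, from 0 to 3 and from 22 to 1023. In the 4 fits in which limma called none of the 9, 6 had an unadjusted p under 0.05. The share of all probe sets under that cut was not counted in those fits. It was 24.9% in the reported fit, so the 6 cannot be set against a like share. In the fit over 5656 genes with the mean of each gene's probe sets, 6 of the 9 and 5 related genes passed, as did 14.9% of all genes. Among probe sets above the median level, of which 12.8% passed, 4 of 28 related genes did, and GLG1, GLG2, GAC1 and PIG1 fell below that level. With a block on the replicate number 1 glycogen gene (GPH1), 1 related gene (HXK1) and 307 probe sets passed, while GLC3 (adjusted p = 0.0651), PIG1 (0.0547) and GLC8 (0.0603) did not. Deviations of same-numbered arrays correlated at 0.415, 0.512 and 0.0779, and H2B K123R replicate 3 correlated best with wild-type replicate 2, so the numbers were not taken to pair the samples. All 10 ribosomal RNA control probe sets were lowest on replicate 1 and highest on replicate 2 in both strains, a hint from the data of a shared batch, which the labels do not give. The cause of these shifts was not tested. Signals near the mouse controls limit GAC1.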

Other observations

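The genes next to the 9 glycogen genes in the R64 gene order were read as well, 14 of 18 neighbouring protein-coding genes being measured. Of these 14, 1 passed limma's test, against 8.98% of all genes, and the median log2 difference was 0.15, against 0.08 over all genes. The gene that passed was YJL136W-A, beside GLG2, with a mean of 42.9 in H2B K123R and 90.6 in wild type (log2 difference -0.86, adjusted p = 0.0252). Every H2B K123R array read higher than every wild-type array for 3 of the 14 neighbours, against 25.5% of all genes. These were MCM5, MPC54 beside GAC1 and YLR257W beside GSY2, and none of them passed. Beside PIG1, MCM5, a subunit gene of the replicative helicase, read 320.2 in H2B K123R and 207 in wild type on average, with no overlap between the groups (log2 difference 0.59, adjusted p = 0.0581). Beside GPH1, SGV1, a cyclin-dependent kinase gene, read 428 in H2B K123R and 381 in wild type (log2 difference 0.15, adjusted p = 0.582). Beside GLC3, UBC8, a gene of glucose-induced breakdown of a gluconeogenic enzyme, read 219 in H2B K123R and 148 in wild type, with overlapping groups (log2 difference 0.49, adjusted p = 0.240).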
